A study of Mus musculus with 3 samples.

Results

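Cyclin Y (Ccny) and cyclin-dependent kinase 14 (Cdk14) were described in single cells of fetal and adult mouse bone marrow (BM). The 2 genes were taken by symbol from a targeted panel in which 125 genes had a molecule, and both were detected in all 3 libraries. E18.5 EC held endothelial cells (ECs) sorted by FACS from the marrow of E18.5 embryos, and the sources describe the gate either as CD31 with endomucin or as CD31 alone. E18.5 BM and Adult BM held marrow cells after mature haematopoietic cells had been removed with lineage antibodies, the first from E18.5 embryos and the second from adults whose age is not given. For adult marrow the methods also describe removal of cells with CD117 and CD45, among others, without saying if it was done for Adult BM, and this bears on which adult blood cells remained. All mice were C57/B6 wild type. Each group had 1 library, made from the pooled marrow of several mice, so p-values were not computed. Stage, preparation and library cannot be told apart. Intervals are given at 95% throughout and cover counting error alone.

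Wnt ligands bind frizzled receptors together with the co-receptors Lrp5 and Lrp6, and phosphorylation of the co-receptor tail lets it hold Axin and so spares beta-catenin from destruction. Ccny is a membrane-anchored cyclin that recruits Cdk14, also known as PFTK1, to the plasma membrane. The complex phosphorylates Lrp6 and primes it for the Wnt signal, and it is known for peaking in the G2 and M phases of the cell cycle. The kinase relative Cdk16 can also bind Ccny, so the cyclin has partners besides Cdk14.

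On GRCm38 the Ccny transcript targeted by the panel (ENSMUST00000053917.5) lay on chromosome 18 from 9312304 to 9450150 on the minus strand and had 10 exons. The targeted Cdk14 transcript (ENSMUST00000030763.12) lay on chromosome 5 from 4803391 to 5380197 on the minus strand and had 15 exons. Each gene was read by 1 amplicon. Primers differ between the amplicons, so the level of one gene was not set against that of the other, and only the change of their ratio between cells was read.

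The libraries held 4038, 12844 and 7939 cells in the order above, with a median of 83, 97 and 242 molecules per cell. Ccny gave 1970, 6014 and 2868 molecules and Cdk14 gave 131, 760 and 962. A cell carried at most 8 molecules of Ccny and at most 5 of Cdk14. Cells were put into classes by clustering on targets outside Wnt signalling and the cell cycle, so neither gene shaped the classes. There were 2724 endothelial cells in the sorted library E18.5 EC, 408 in E18.5 BM and 1693 in Adult BM. Ptprc cells, named after the gene of the blood cell antigen CD45, numbered 983, 10254 and 1724. Stromal cells numbered 1342 in E18.5 BM and 3766 in Adult BM, while E18.5 EC held only 25. Cartilage cells, 433 in number, formed a class in Adult BM alone. Pecam1, the gene of CD31, was present in 100% of endothelial cells of E18.5 EC, and Ptprc was present in 98.9% of its Ptprc cells against 1.65% of its endothelial cells. Both genes also served to name the classes, so these percentages describe the classes and do not check them. Pecam1 was present in 81.9% of the Ptprc cells of that library too, with 336 against 2818 molecules per 10000 panel molecules in its endothelial cells.

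The balance of the pair set stroma apart. Cdk14 made up 36.4% (32.6 to 40.3) of the molecules of both genes in stromal cells of E18.5 BM and 51.3% (48.8 to 53.8) in those of Adult BM. In endothelial cells it made up 5.06% (3.93 to 6.41) in E18.5 EC, 5.73% (2.89 to 10) in E18.5 BM and 7.26% (5.49 to 9.39) in Adult BM. Both stromal classes thus lay above all 3 endothelial classes, with no overlap of the intervals. In Ptprc cells the share was 8.83% (6.79 to 11.2) in E18.5 EC, 9.07% (8.33 to 9.86) in E18.5 BM and 1.77% (1.03 to 2.81) in Adult BM. In adult cartilage cells it was 6.05% (3.91 to 8.86). This share needs no denominator from the rest of the panel, so the abundance of matrix transcripts in stroma does not enter it.

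**Figure D1:**
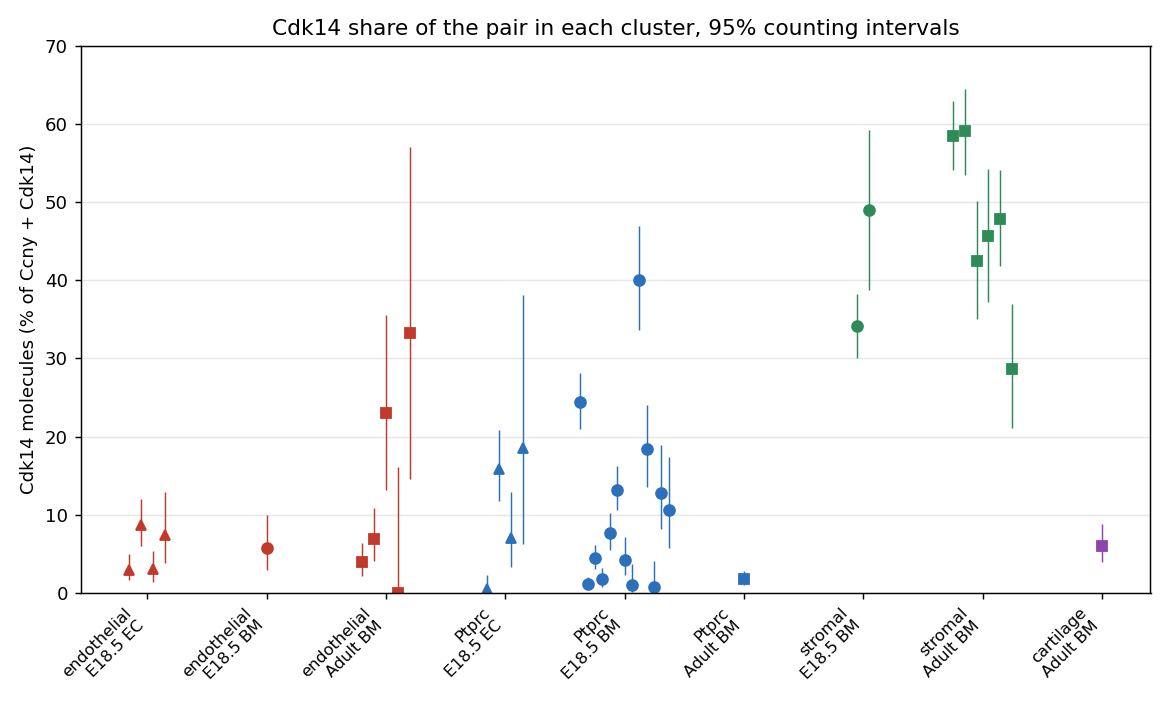
Cdk14 molecules as a percent of Ccny plus Cdk14 molecules in each named cluster (vertical axis), grouped by class and library (horizontal axis), with bars for 95% binomial intervals and with triangles, circles and squares for E18.5 EC, E18.5 BM and Adult BM. The 6 adult stromal clusters lie between 28.6% and 59.1%, while the endothelial clusters of E18.5 EC lie between 2.95% and 8.64%.

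All 8 stromal clusters of the 2 marrow libraries lay at 28.6% or above, a range that also held 1 Ptprc cluster of E18.5 BM with 40.1%, 1 small endothelial cluster of Adult BM with 33.3% and an unnamed cluster of Adult BM led by Prg4 with 41.4% (34.2 to 49). The 2 adult clusters led by the reticular stromal genes Lepr, the leptin receptor, and Cxcl12, a chemokine that holds stem cells, had the highest shares, 58.5% and 59.1%. Adult clusters led by Mmp13, by Ccn3 with Aspn and by the osteocalcin gene Bglap followed with 42.5%, 45.7% and 47.9%. The lowest adult value, 28.6% (21.1 to 37), belonged to the cluster led by the mural cell genes Acta2 and Rgs5. At E18.5 the order was the other way round, since the cluster led by Acta2 and Tagln had 49% (38.7 to 59.3) and the large cluster led by Postn had 34.1% (30.1 to 38.3).

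On the panel scale a level is the number of molecules of a gene per 10000 molecules of all targets, and Ccny was lower in stroma than in endothelial and Ptprc cells at both stages. The Ccny level was 50.4 (47.6 to 53.3) in endothelial cells of E18.5 EC, 45.6 (39.2 to 52.7) in those of E18.5 BM and 27.3 (25.3 to 29.5) in those of Adult BM. In Ptprc cells it was 39.9 (36.8 to 43.2), 41.2 (40.1 to 42.4) and 50.5 (47.3 to 53.8). In stromal cells it was 11.1 (10 to 12.2) in E18.5 BM and 2.24 (2.08 to 2.4) in Adult BM, and in cartilage cells it was 2 (1.8 to 2.21). Ordered from the highest, the adult Ptprc, both fetal endothelial and both fetal Ptprc classes each overlapped with the next, the adult endothelial and fetal stromal classes stood apart, and adult stroma overlapped with cartilage at the bottom.

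The Cdk14 level followed another order. It was highest in stromal cells of E18.5 BM at 6.36 (5.56 to 7.23). Ptprc cells came next with 4.11 (3.76 to 4.49) in E18.5 BM and 3.87 (2.94 to 4.99) in E18.5 EC. Endothelial cells had 2.77 (1.38 to 4.96) in E18.5 BM, 2.69 (2.07 to 3.42) in E18.5 EC and 2.14 (1.6 to 2.8) in Adult BM, and adult stroma lay among them with 2.35 (2.19 to 2.52). Adult Ptprc cells had 0.908 (0.529 to 1.45) and adult cartilage cells had 0.129 (0.0825 to 0.192). From fetal Ptprc cells down to adult endothelium each class overlapped with the next, and the gaps lay above and below that run.

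**Figure D2:**
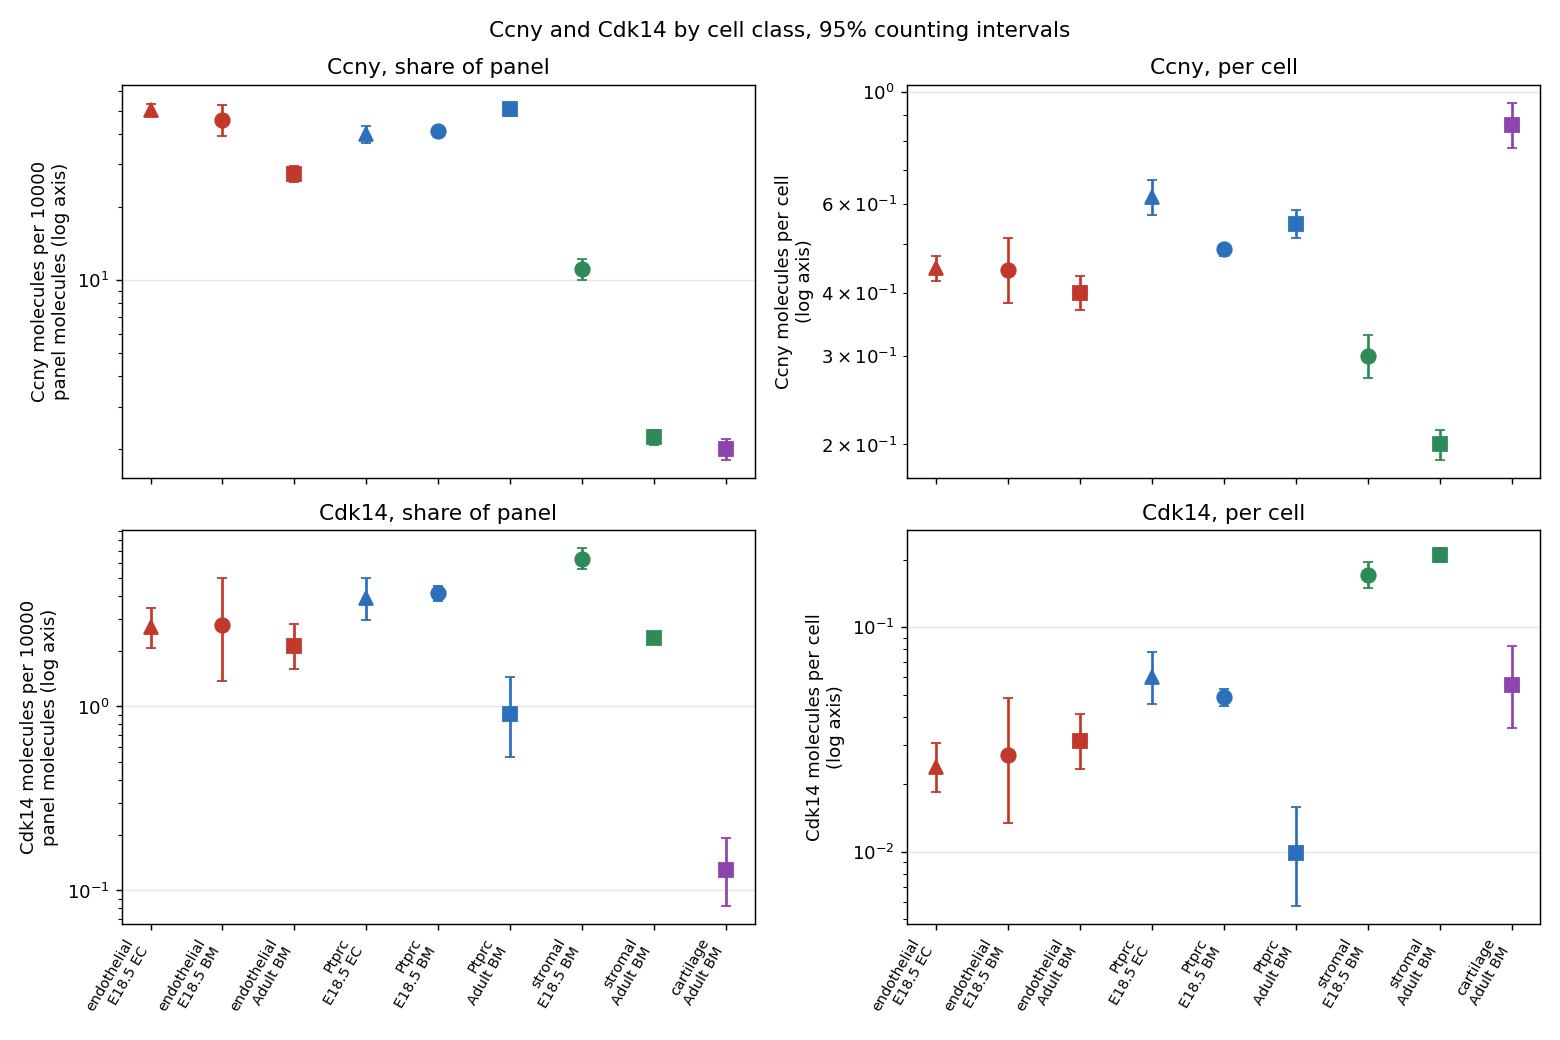
Level of each gene per 10000 panel molecules (left, log axis) and molecules per cell (right, log axis) by class and library, with 95% Poisson intervals as bars and the same marker shapes for the libraries. Ccny falls from 50.4 in fetal endothelium to 2.24 in adult stroma on the left, while Cdk14 per cell is highest in the 2 stromal classes on the right, at 0.171 and 0.21.

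The number of molecules in a cell differed strongly between classes, and the panel scale must be read with it. The median cell had 73 molecules in fetal endothelium of E18.5 EC, 237 in fetal stroma, 400 in adult stroma and 4012 in adult cartilage. Per cell, Ccny gave 0.448 molecules in endothelial cells of E18.5 EC, 0.444 in those of E18.5 BM and 0.4 in those of Adult BM. Stromal cells had 0.3 in E18.5 BM and 0.2 in Adult BM, below every endothelial and Ptprc class on this scale too, whereas cartilage cells had 0.861, the highest of all. Cdk14 per cell was 0.171 in fetal and 0.21 in adult stroma, against 0.0239, 0.027 and 0.0313 in the 3 endothelial classes in the order E18.5 EC, E18.5 BM and Adult BM.

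Within Adult BM, the Ccny level of stromal cells was 0.0818 times (0.0737 to 0.0909) that of endothelial cells, and 0.499 times (0.449 to 0.555) per cell. Of the 105 targets with at least 20 molecules in this comparison, 45.7% were at least 2-fold lower in stroma, so a lower panel level was common among them. Cdk14 did not share the fall, with a ratio of 1.1 (0.833 to 1.48) on the panel scale and 6.72 (5.08 to 9.05) per cell. One stromal cluster of 310 cells, led by Bglap, held 54% of the panel molecules of the adult stromal class. Without it the stromal levels were 3.97 for Ccny and 4.3 for Cdk14, and the ratios to endothelium were 0.145 and 2.01 (1.52 to 2.71). In E18.5 BM the ratio of stroma to endothelium was 0.244 (0.204 to 0.292) for Ccny and 2.29 (1.26 to 4.66) for Cdk14, the latter resting on 11 endothelial molecules. There 32.7% of targets were at least 2-fold lower and 48% at least 2-fold higher in stroma, so each gene moved with a large part of the panel.

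Many adult endothelial cells carried markers from the lists of other classes, and much of the endothelial Cdk14 count lay in such cells. Of the 1693 adult endothelial cells, 653 had at least 2 stromal, blood or cartilage markers above the share of their library. The stromal list holds Cxcl12, which was also among the leading targets of the arterial Gja4 cluster of E18.5 EC. In adult endothelium Cxcl12 gave 788 of the 1609 stromal marker molecules per 10000. The rule took 345 of the 462 cells of the adult Gja4 cluster, so the cells it removed need not be mixed. Without such cells the Cdk14 count of adult endothelium fell from 53 to 13 molecules, that of Ccny from 677 to 395, the Cdk14 share of the pair was 3.19% (1.71 to 5.39) and the Cdk14 ratio of stroma to endothelium was 2.33 (1.35 to 4.39). The endothelial cluster with the highest Cdk14 share, 33.3%, was one of 36 cells that all met this rule, with 5405 stromal marker molecules per 10000. Another adult cluster, led by Vwf and Apln, had a Cdk14 level of 5.57 and 1646 stromal marker molecules per 10000. The cluster led by Stab1, a gene of sinusoids, had 34.7 for Ccny and 1.42 for Cdk14, and the one led by Gja4, a gap junction gene of arteries, had 27.9 and 2.08. Their stromal marker sums were 689 and 2183. The remaining adult endothelial cluster, of 72 cells led by Vwf and Srgn, had a sum of 267 and no Cdk14 molecule. Without cells that met the rule, the Gja4 cluster kept 1 of 17 Cdk14 molecules. The Stab1 cluster then kept 9 of 15, and the cluster led by Vwf and Apln kept 3 of 14. The part of mixed droplets or carried RNA in the endothelial Cdk14 signal was not tested further.

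Shares of cells with a molecule followed the counts. Ccny was found in 33.3% (31.6 to 35.1) of endothelial cells of E18.5 EC and in 30.2% (28 to 32.4) of those of Adult BM. It was found in 23.7% of fetal and 16.7% of adult stromal cells, and in 53.3% of cartilage cells. Cdk14 was found in 14.8% (12.9 to 16.8) of fetal and 17.8% (16.6 to 19.1) of adult stromal cells, against 2.31% (1.78 to 2.95) of endothelial cells of E18.5 EC and 0.928% (0.531 to 1.5) of adult Ptprc cells. The lowest share among clusters with a Cdk14 molecule was 0.279%, or 1 cell of 359 in a Ptprc cluster of E18.5 EC with a median of 172 molecules per cell.

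Cells were also compared at an equal depth of 50 randomly drawn molecules each. Too shallow for this were 6 adult stromal cells and 700 endothelial cells of E18.5 EC. At that depth Ccny was found in 22% of endothelial cells of E18.5 EC, 6.91% of fetal stromal and 1.52% of adult stromal cells. For Cdk14 the thinned shares were 1.24% (0.801 to 1.82) in endothelial cells of E18.5 EC, 3.27% (2.37 to 4.38) in fetal stroma and 1.65% (1.27 to 2.11) in adult stroma. Fetal stroma thus lay above the endothelium of E18.5 EC for Cdk14 at equal depth, it overlapped with that of E18.5 BM at 1.82% (0.672 to 3.93), and adult stroma overlapped with adult endothelium at 1.06% (0.619 to 1.69). No thinned cartilage cell of 433 had Cdk14, which allows a share of up to 0.848%.

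Cells with both genes were about as many as the product of the separate shares gives. In adult stroma 132 cells had both against a product of 112, in Ptprc cells of E18.5 BM 146 against 158, and in fetal stroma 51 against 46.9. The largest gap in relative terms was in endothelial cells of E18.5 EC, with 34 cells against 21. There the cells with Cdk14 were deeper, with a median of 130 molecules against 72. They were also deeper in adult stroma, at 538 against 379, and in fetal stroma, at 288 against 231. In Ptprc cells of E18.5 BM they were shallower, at 76 against 91.

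Ptprc cells were the class in which Cdk14 varied most. The 13 Ptprc clusters of E18.5 BM spanned Cdk14 levels from 0.398 to 32.9 and Ccny levels from 19.2 to 71.3. Cluster 10, with Ptprc, Vwf and Srgn among its leading targets, had 89 Cdk14 molecules in 460 cells. Its Cdk14 level was the highest of all 45 clusters on the panel scale, 17.6% of its cells had the gene, and Cdk14 made up 40.1% (33.6 to 46.9) of the pair. It was also the shallowest cluster, with a median of 48.5 molecules per cell. Per cell it had 0.193 Cdk14 molecules, below the adult stromal cluster led by Bglap with 0.41, where 32.9% of cells had the gene. Cluster 0, led by Stab1, held 143 Cdk14 molecules in 1721 cells, a level of 10.3. Clusters 12 and 14 had levels of 14.2 and 10.5.

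At the other end, clusters 1, 4, 9 and 13 had 0.518, 0.761, 0.461 and 0.398, and together these clusters carried few Cdk14 molecules although their Ccny levels, from 43.8 to 53.8, were close to that of cluster 10 at 49.2. Cluster 2, led by the stem cell regulators Hlf and Mecom, had a Cdk14 level of 2.82. Cluster 6, led by the osteoclast genes Atp6v0d2, Ctsk, Mmp9 and Acp5, had 2.93 with a Ccny level of 19.2, the lowest among Ptprc clusters on the panel scale. Its cells were deep, with a median of 272 molecules, and that Ccny rank did not hold on other scales. Per cell it had 0.608 Ccny molecules, and per 1000 Wnt pathway molecules it had 56.7, the highest of the Ptprc clusters of E18.5 BM. In E18.5 EC the Ptprc cluster led by the osteoclast genes Acp5 and Ctsk had 7.98, the one led by Mmp9 and Vcan had 9.79 from 5 molecules, and the one led by Srgn and Hlf had 0.146 from 1 molecule.

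**Figure D3:**
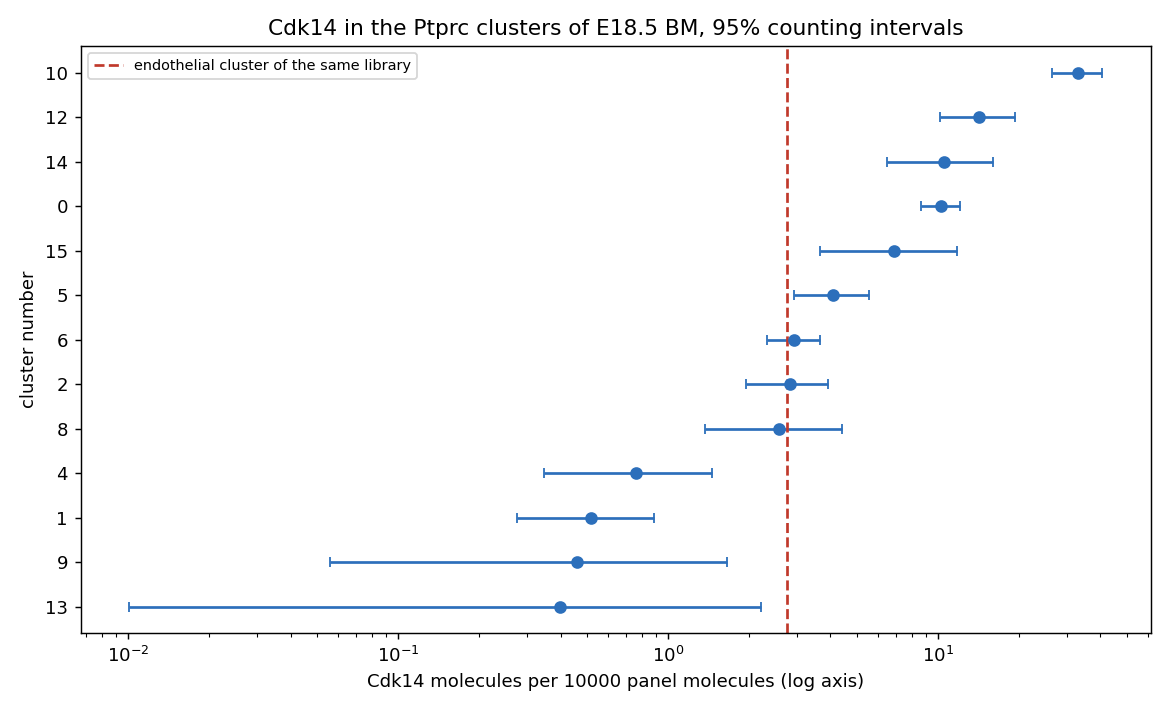
Cdk14 molecules per 10000 panel molecules (horizontal log axis) in the 13 Ptprc clusters of E18.5 BM, named by number, with 95% Poisson intervals as bars and a dashed line at the endothelial cluster of the same library. Cluster 10 at 32.9 lies far above the line at 2.77, and clusters 1, 4, 9 and 13 lie below it.

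The summed level of stromal markers was 336 per 10000 in cluster 10, 241 in cluster 0, 69.1 in cluster 12 and 34.4 in cluster 14. It was 950, 914 and 1057 in clusters 4, 9 and 13, which were led by Alpl, itself a marker of that list, and from 42.2 to 110 in the others. Clusters 10 and 0 were thus the highest outside the Alpl clusters, and the part of stromal RNA in their Cdk14 was not tested beyond the following value. Without the 30 cells of cluster 10 that carried markers of another class, its Cdk14 level was 35.1. Vcan, the gene of the proteoglycan versican, was at 10.5 to 23.9 in clusters 10, 0, 12 and 14, against at most 2.11 in clusters 1, 4, 9 and 13.

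In Adult BM all 1724 Ptprc cells fell into 1 cluster. Their Cdk14 level was 0.221 times (0.128 to 0.357) that of E18.5 BM, from 17 and 499 molecules, while that of Ccny was 1.22 times (1.14 to 1.31). Of the targets compared, 22.3% were at least 2-fold lower in the adult. The Ptprc cells sorted with the endothelium in E18.5 EC had panel level ratios to those of E18.5 BM of 0.969 (0.889 to 1.05) for Ccny and 0.94 (0.705 to 1.23) for Cdk14, and per cell Ccny was at 1.27 times (1.17 to 1.38). The fetal Ptprc cells included 1721 in the cluster led by Stab1, whereas the adult ones were led by Ptprc, Srgn, Hlf and Acp5, and the part of this make-up in the Cdk14 ratio was not tested.

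Error correction moved with the adult Ptprc value. The pipeline reports molecules after 2 steps, recursive substitution error correction (RSEC) and then distribution-based error correction (DBEC), and the second drops molecules with few reads. DBEC kept 51.6% of the Cdk14 molecules of Ptprc cells in E18.5 BM but 13.8% of those in Adult BM, while it kept 65.2% and 66.1% of the Ccny molecules. Before that step, Adult BM had 123 Cdk14 molecules in Ptprc cells, and the ratio of adult to E18.5 was 0.6 (0.493 to 0.724). The adult level was thus lower with either count, by 4.53-fold with DBEC and by less with RSEC. The Ccny ratio turned to 0.878 (0.829 to 0.929) with RSEC, so its direction depended on the count used. In Adult BM, DBEC also kept 37.3% of the Ccny molecules of stromal cells against 66.5% of those of endothelial cells. The Ccny ratio of adult stroma to endothelium was 0.171 (0.158 to 0.185) with RSEC against 0.0818 with DBEC, so its size depended on the count too.

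Against endothelium of the same library, adult Ptprc cells had a Ccny ratio of 1.85 (1.67 to 2.04) and a Cdk14 ratio of 0.425 (0.231 to 0.745), and 46.8% of targets were at least 2-fold lower. The Cdk14 ratio was 0.966 (0.754 to 1.23) with RSEC and 0.754 (0.306 to 1.82) without mixed cells, so the lower Cdk14 level of adult Ptprc cells relative to adult endothelium was not seen under those settings. In E18.5 BM the same ratios were 0.904 (0.779 to 1.05) and 1.48 (0.823 to 2.99), both with intervals that include 1.

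Cartilage had little of either gene for its depth. The adult cartilage level was 0.0733 times (0.0644 to 0.0832) the endothelial one for Ccny and 0.0602 times (0.0355 to 0.0993) for Cdk14. Of the targets compared, 66.3% were at least 2-fold lower in cartilage. Per cell the direction turned, to 2.15 for Ccny and 1.77 for Cdk14. With RSEC counts the ratios were 0.173 and 0.491 (0.405 to 0.597), still below 1. Against adult stroma, cartilage had a similar Ccny level, with a ratio of 0.895 (0.788 to 1.01), and a Cdk14 level of 0.0547 times (0.0348 to 0.082), or 0.264 times per cell. DBEC kept 24 Cdk14 molecules in cartilage, which was 6.12% of those after RSEC, and it kept 38.7% in adult stroma. With RSEC counts Cdk14 made up 29.2% of the pair in cartilage, so its low share there rests on that correction. At E18.5 a cluster of 168 cells led by Col10a1, Mmp13, Spp1 and Col2a1, which met no naming rule, had 3.16 for Ccny and 0.954 for Cdk14.

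Between the stages, the Ccny level of endothelial cells in Adult BM was 0.542 times (0.493 to 0.596) that in E18.5 EC and 0.599 times (0.508 to 0.71) that in E18.5 BM. The endothelial cells of both fetal libraries did not differ beyond counting error, with an E18.5 BM to E18.5 EC ratio of 0.905 (0.77 to 1.06) for Ccny and 1.03 (0.491 to 1.97) for Cdk14. Per cell the adult to E18.5 EC ratio of Ccny was 0.894 (0.812 to 0.982), and against the other Wnt pathway molecules of the same cells it was 0.866 (0.787 to 0.952). Endothelial Cdk14 had an adult to E18.5 EC ratio of 0.796 (0.543 to 1.16), with the interval on both sides of 1. It was 0.508 (0.245 to 0.99) without mixed cells, from 13 and 33 molecules, and 1.31 (0.895 to 1.92) per cell, so no direction was read.

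In stroma the panel level of both genes was lower in the adult, by 0.201 times (0.178 to 0.228) for Ccny and 0.37 times (0.319 to 0.431) for Cdk14. Here 59.3% of targets were at least 2-fold lower in the adult, whose stromal cells were also deeper, and without the Bglap cluster the ratios were 0.357 and 0.676 (0.581 to 0.789). Per cell, Ccny was at 0.667 times (0.59 to 0.754) and Cdk14 at 1.23 times (1.06 to 1.43), and per 1000 pathway molecules they were at 0.881 (0.78 to 0.997) and 1.62 (1.4 to 1.89). The direction of Cdk14 in stroma thus depended on the denominator. Its share of the pair, larger in the adult stromal class, uses no such denominator and so could not show this. That larger share did not hold in the clusters led by Acta2, with 49% in E18.5 BM and 28.6% in Adult BM.

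**Figure D4:**
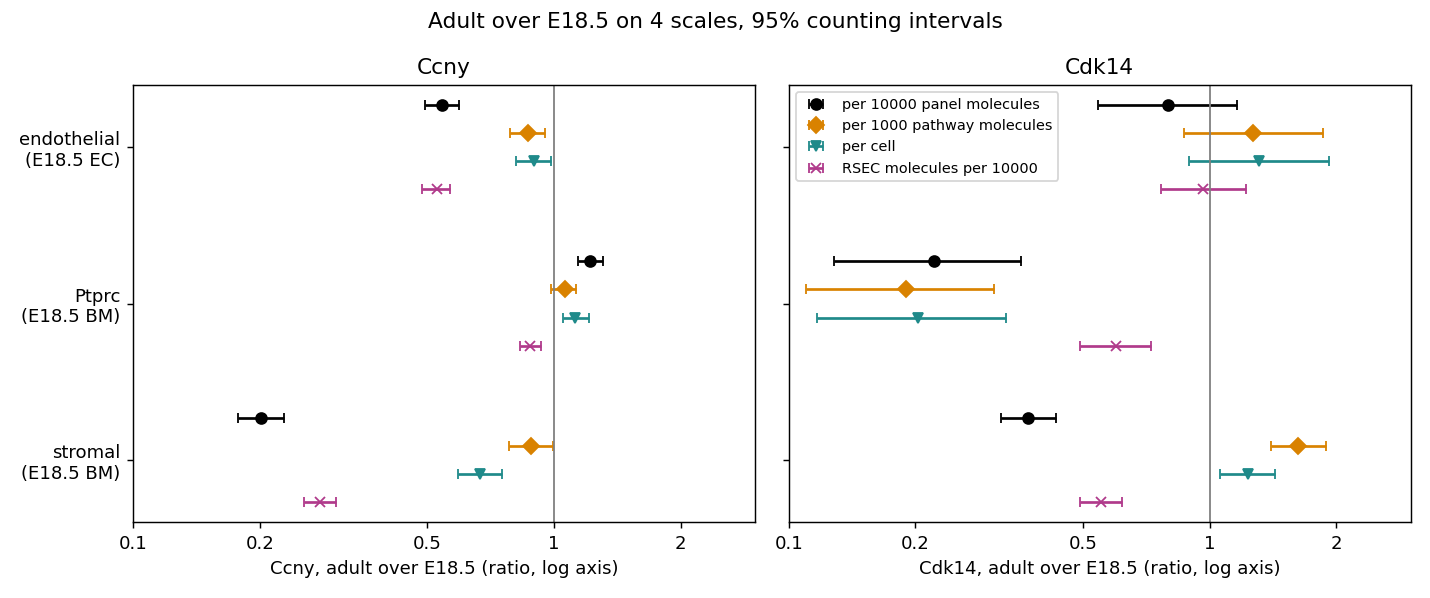
Ratio of the adult to the E18.5 level (horizontal log axis) for Ccny (left) and Cdk14 (right) in 3 classes, on the panel, pathway and per cell scales and with RSEC counts, with 95% intervals as bars. Cdk14 in Ptprc cells lies below 1 on all 4, at 0.221, 0.19, 0.203 and 0.6, and Cdk14 in stroma lies on both sides of 1.

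Stromal clusters with like leading genes at the 2 stages, picked after their values were seen, did not move alike. Between the clusters led by Postn, Aspn and Ccn3, the adult to fetal ratio was 0.547 (0.42 to 0.704) for Ccny and 0.889 (0.656 to 1.19) for Cdk14. Between the clusters led by Acta2, Tagln and Rgs5, it was 0.701 (0.493 to 1.01) for Ccny and 0.292 (0.186 to 0.457) for Cdk14. Against pathway molecules the latter pair of clusters had 1.91 (1.34 to 2.74) for Ccny and 0.794 (0.505 to 1.24) for Cdk14, so the direction of Ccny there turned with the denominator. The Lepr and Cxcl12 clusters of the adult had no fetal cluster with the same leading genes. Between the endothelial clusters led by Gja4, Sema3g and Hey1 in Adult BM and E18.5 EC the ratios were 0.799 (0.644 to 0.995) and 0.742 (0.328 to 1.75), and between those led by Stab1 and Kdr they were 0.591 (0.513 to 0.681) and 0.795 (0.353 to 1.82).

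Over the 42 clusters of at least 50 cells, the panel levels of Ccny and Cdk14 were not related, with a Pearson r of 0.06 on log2 levels after adding 1. Within E18.5 EC, E18.5 BM and Adult BM the r was 0.07, -0.13 and 0.01. Among the targets most like Ccny of 105 were Ccar2, a nuclear regulator, and Apc, a scaffold of the destruction complex, each with an r of 0.97. Among those most like Cdk14 were Vcan with 0.64 and Wnt6, a Wnt ligand, with 0.45. Points share libraries and one denominator, so these values are descriptions.

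**Figure D5:**
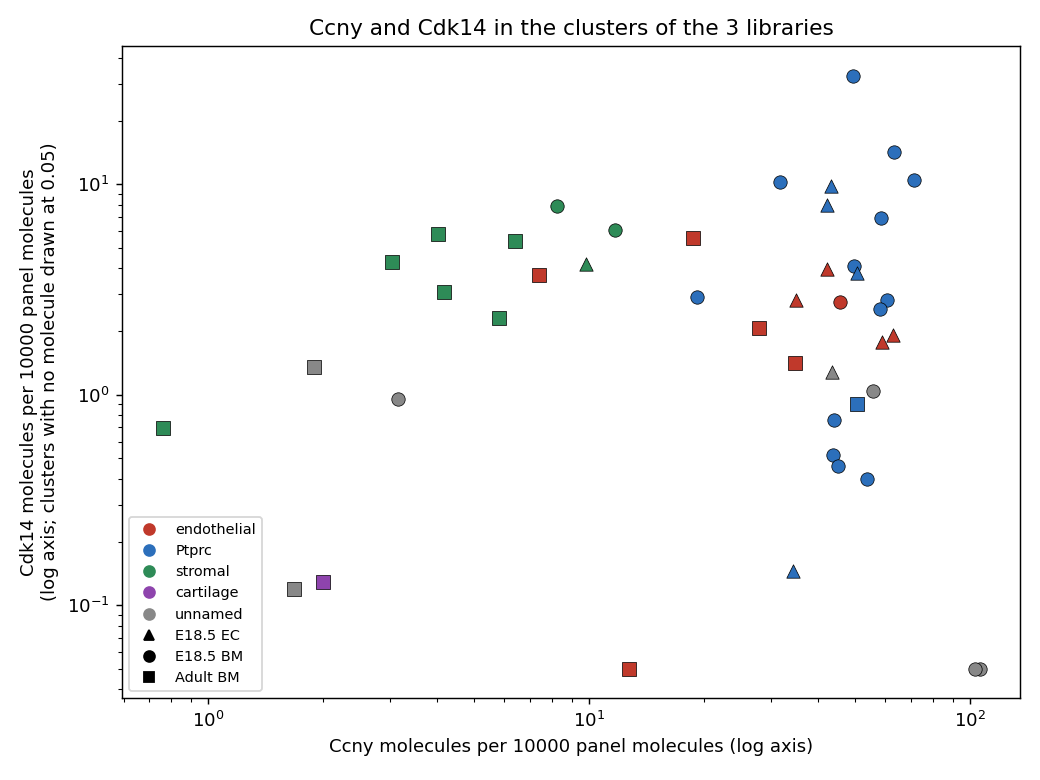
Ccny (horizontal log axis) against Cdk14 (vertical log axis) molecules per 10000 panel molecules for each of the 45 clusters, coloured by class and shaped by library, with clusters that had no Cdk14 molecule drawn at 0.05. Stromal clusters lie at low Ccny and middle Cdk14, and Ptprc clusters spread from 0.146 to 32.9 in Cdk14.

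The clusters with the most Ccny were a pair of small unnamed ones in E18.5 BM. Cluster 18 had 106 per 10000 and 1.07 molecules per cell in 84 cells, and cluster 19 had 103 and 1.09 in 66 cells. Neither had a Cdk14 molecule, against 90 and 72 Ccny molecules. This allows Cdk14 levels of up to 4.36 and 5.3, above the 4.11 of Ptprc cells of that library, so absence was not shown.

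Ccny was higher in cells with cell cycle transcripts on the panel scale. Mki67, Top2a, Cdk1 and Ccne1 were left out of the denominator, while Ccnd1 stayed in it. Cells with at least 3 molecules of Mki67, Top2a and Cdk1, markers of dividing cells, were set against cells of the same class with none. The Ccny level was higher in the former in 9 of 9 classes of the libraries, by 1.2 to 2.72 times, and the interval lay above 1 in 8 of them. No such count over all targets is given, so this does not set Ccny apart from them. In Ptprc cells the level was 60.3 against 29.2 in E18.5 BM and 77.2 against 30.7 in Adult BM, ratios of 2.07 (1.88 to 2.28) and 2.51 (2.05 to 3.1). Relative to the other Wnt pathway molecules these 2 ratios were 1.08 (0.98 to 1.19) and 1.41 (1.15 to 1.74). Against the other pathway molecules the ratio was above 1 in 7 of 9 classes, from 0.807 to 1.45, with an interval above 1 in 2 and below 1 in 1, so the direction depended on the denominator in part of the classes.

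Cdk14 did not follow. In fetal Ptprc cells its level was lower where cell cycle transcripts were present, at 3.45 against 11.1 in E18.5 BM, a ratio of 0.312 (0.256 to 0.381), and at 0.451 times (0.243 to 0.827) in E18.5 EC. In the other 7 classes the interval included 1. Inside single clusters with at least 50 cells on each side, Ccny was higher with cell cycle transcripts in 17 of 19 on the panel scale, with the interval above 1 in 13, and in 12 of 19 against pathway molecules. For Cdk14 the interval lay below 1 in 4 of 19 and above 1 in 0. Within cluster 10 of E18.5 BM the Cdk14 level was 26.2 against 50.4, and within cluster 0 it was 10.6 against 11.5.

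Of 23 genes of the Wnt co-receptor and cytoplasmic step, 5 to 7 were measured in each comparison, among them the R-spondin receptors Lgr4 and Lgr5, the signal relays Dvl1 and Dvl2, and the destruction complex scaffolds Axin1 and Apc. Lrp6, the substrate of the Ccny and Cdk14 complex, was not among the targets seen, and Lrp5 had 0.0413 molecules per 10000 in endothelial cells of E18.5 EC. In adult stroma against adult endothelium, 4 of 6 were at least 2-fold lower, as were 45.7% of all targets. The median ratio was 0.222 against 0.751 over all targets. Dvl1 was at 0.125, Apc at 0.0886 and Axin1 at 0.2, each lower, as was Ccny, while Lgr4 was at 1.25 (1.05 to 1.5), near the Cdk14 value, and Lgr5 at 2.28 (0.758 to 11.3) rested on 3 endothelial molecules.

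In adult against fetal stroma all 6 measured were at least 2-fold lower, as were 59.3% of all targets. The median was 0.172 against 0.31 over all targets. In adult against fetal Ptprc cells 1 of 6 was at least 2-fold higher, Dvl1 at 2.17, as were 34% of all targets. Lgr4 was the 1 at least 2-fold lower, at 0.254 (0.2 to 0.319), close to the 0.221 of Cdk14, and 22.3% of all targets were also lower. In adult against fetal endothelium of E18.5 EC, 2 of 5 were at least 2-fold lower, Lgr4 at 0.345 and Apc at 0.465, as were 23.1% of all targets. Dvl2 at 0.548 and Axin1 at 0.527 lay just short of that, next to Ccny at 0.542, and the median was 0.527 against 0.976 over all targets. Of 19 cell cycle genes 5 were measured, and in that last comparison all 5 were at least 2-fold lower, with a median of 0.086.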

How the data were processed

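The authors' software was the BD Targeted Rhapsody Analysis Pipeline 1.8 per the file headers, and it assigned reads to amplicons, called cells and gave raw, RSEC-adjusted and DBEC-adjusted molecule counts. The deposited counts are not normalized, and DBEC counts were used. They made up 21.2%, 41.6% and 35.9% of raw molecules in E18.5 EC, E18.5 BM and Adult BM. A cell entered with at least 20 molecules of at least 5 targets. Each library was clustered separately with 11 principal components (scikit-learn 1.9.0), 20 neighbours and the Leiden method (igraph 0.11.9, resolution 0.5, seed 1). Clusters were named from marker lists: at least 3 markers above the other cells, and most markers among the 10 leading targets, with a marker of the class first or a margin of 2. Ptprc in over 80% of cells made a Ptprc cluster. The files used here carry no annotation by the authors, so names are rebuilt, and 306, 840 and 323 cells stayed unnamed. No doublet caller was run, and cells with at least 2 markers of another class were left out as an alternative. Libraries shared 58, 38 and 113 cell barcodes (E18.5 EC with E18.5 BM, E18.5 EC with Adult BM, E18.5 BM with Adult BM).

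Levels have exact Poisson intervals, ratios exact conditional binomial ones and shares exact binomial ones (scipy 1.17.1). Ratio intervals were tested on simulated data. The pathway denominator held 47 Wnt targets without both genes and without Myc, Ccnd1 and Lef1. Background percentages are the share of targets with at least 20 molecules past 2-fold, and a target at 0 entered at the limit of 3 counts. Named genes were both members, every measured gene of a co-receptor and cytoplasmic list and a cell cycle list, and the 3 targets most like each member, of which some are not reported here. Members and lists were chosen with earlier results of these data known. Naming margins, mixed cells, the Cdk14 share of the pair, the cell cycle split and matched clusters were set after the files were seen. Stromal cells of E18.5 EC were too few to compare.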

Additional observations from a re-analysis of the deposited data

Results flagged for a closer look

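On the panel scale both genes took opposite directions at the 2 stages when Ptprc cells were set against endothelial cells of the same library, and this difference was not tested, since each group had 1 library. For Ccny the ratio was 0.904 (0.779 to 1.05) in E18.5 BM and 0.792 (0.718 to 0.874) in E18.5 EC, against 1.85 (1.67 to 2.04) in Adult BM. For Cdk14 it was 1.48 (0.823 to 2.99) in E18.5 BM and 1.44 (0.994 to 2.08) in E18.5 EC, against 0.425 (0.231 to 0.745) in Adult BM. The intervals of E18.5 BM include 1 for both genes, as does that of Cdk14 in E18.5 EC. The contrast depended on scale and count: per cell Ccny was at 1.1, 1.38 and 1.37 in E18.5 BM, E18.5 EC and Adult BM, against pathway molecules it was at 0.902 in Adult BM, and Cdk14 in Adult BM was at 0.966 with RSEC and 0.882 with raw molecules.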

How the results depend on the processing

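Of 248 alternative values, 177 lay within the interval of the reported value, 65 lay outside it and 6 turned direction with intervals clear of 1. Some of the 177 equalled the reported value by construction, so their number does not measure robustness. Leaving out the adult Bglap cluster could change only results with adult stroma. A stricter naming rule changed only classes of adult stroma and of endothelium in E18.5 EC. Values that crossed 1 where an interval included 1 are not among the 6. One of these was Cdk14 in endothelium by stage, which went from 0.796 to 1.27 per 1000 pathway molecules. No filter on cells, 20 principal components and leaving out the 5 cells with the most molecules moved none. With RSEC counts the Ccny ratios were 0.171 (adult stroma to endothelium), 1.63 (adult Ptprc), 0.173 (cartilage), 0.306 (fetal stroma), 0.878 (Ptprc by stage, turned) and 0.278 (stroma by stage). The Cdk14 ratios were 0.966 (adult Ptprc), 0.491 (cartilage), 0.6 (Ptprc by stage) and 0.552 (stroma by stage), and its share of the pair was 7.33%, 12.7%, 11.2%, 7.93% and 29.2% in endothelium of E18.5 EC and Adult BM, Ptprc cells of E18.5 BM and Adult BM, and cartilage. With raw molecules the Ccny ratios were 0.125, 0.119, 0.304, 0.746, 1.02 and 0.259 (adult stroma, cartilage, fetal stroma, then endothelium, Ptprc and stroma by stage), those of Cdk14 were 0.882, 0.336, 0.503 and 0.456 (adult Ptprc, cartilage, Ptprc and stroma by stage), and the pair shares were 7.56%, 10.9%, 12.9%, 11.6%, 6.05% and 25.6% (endothelium of E18.5 EC and Adult BM, Ptprc cells of E18.5 EC, E18.5 BM and Adult BM, cartilage). Per 1000 pathway molecules, Ccny was at 0.31, 0.902 (turned) and 0.494 in adult stroma, Ptprc and cartilage, 0.627 in fetal Ptprc, and 0.866, 1.06 and 0.881 by stage. Cdk14 was at 4.17, 0.207 and 0.406 in the same adult classes, and 1.27 and 1.62 (turned) in endothelium and stroma by stage.

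Per cell, Ccny was at 0.499, 1.37 and 2.15 (turned) in adult stroma, Ptprc and cartilage, 1.1 and 0.675 in fetal Ptprc and stroma, and 0.894, 1.12 and 0.667 by stage. Cdk14 was at 6.72 and 1.77 (turned) in adult stroma and cartilage, 6.36 in fetal stroma, and 1.31 and 1.23 (turned) in endothelium and stroma by stage. Without mixed cells, Ccny in adult stroma was at 0.063, Cdk14 at 2.33, 0.754 and 0.121 in adult stroma, Ptprc and cartilage and at 0.508 in endothelium by stage, and the pair shares at 3.53%, 3.19% and 54.9% in endothelium of E18.5 EC and Adult BM and adult stroma. With cells gated by their own markers, Ccny was at 1.51 in adult Ptprc cells and 1.01 by stage. Under settings added after the data were seen, the stricter naming rule gave a pair share of 3.68% in endothelium of E18.5 EC, and leaving out the Bglap cluster gave ratios of 0.145 and 2.01 in adult stroma and 0.357 and 0.676 by stage for Ccny and Cdk14. The cause of these shifts was not tested. No paired analysis was possible because each group had 1 library. Depth limits Cdk14 in endothelium (11 to 65 molecules), adult Ptprc cells (17) and cartilage (24).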
